A study of Drosophila melanogaster with 4 samples.

Results

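The stretches described here are the long intervals of the Drosophila melanogaster genome in which no region enriched for histone H3 monomethylated at lysine 79 (H3K79me1) was listed in last-stage larvae. They were chosen by pooling the enriched regions of 3 deposited lists, taking their union on the chromosome arms 2L, 3L, 3R and X, and keeping each interval of at least 50 kb between 2 neighbouring union regions. Of 5967 such intervals, 339 met this length. The choice used the measured regions themselves, so the number, length and position of the stretches are given as descriptions without a test.

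The series held 4 libraries from Oregon-R, a wild type strain, collected as larvae of the third instar, all of them untreated as far as the labels say. In 2 ChIP replicates, formaldehyde-fixed chromatin was precipitated with a rabbit antibody sold as specific for H3K79me1 (Abcam lot 1), although the reference page given for it is named for the dimethylated form. The other 2 libraries were input DNA and had no list used here. Whole larvae mix many tissues, so a stretch without a region may still carry the mark in a minority of cells, and this was not tested. Whether the replicates were separate cultures is not stated in the labels.

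H3K79 lies on the surface of the nucleosome core rather than on a histone tail, and its methyl groups are placed by Dot1, called grappa in flies. The mark is known from the bodies of transcribed genes. Fly chromosome arms are also known to hold long domains of silent chromatin, among them Polycomb-bound loci such as the Hox complexes, clusters of genes used in a single tissue, and sequence near the centromeres. Which genes lie in the stretches was not analysed here, because the positions are of FlyBase release 5 and the gene table at hand is of release 6. No genome sequence of release 5 was used, and no sequence of a stretch is shown.

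The 339 stretches were few among the intervals but held most of the sequence between listed regions. They made up 5.68% of the intervals between regions and 62.1% of the summed interval length. Together they spanned 38.9 Mb, or 39.7% of the 97.9 Mb of the 4 arms, which is more than the 35.9% taken up by the union of all regions. At the other extreme, the 2568 intervals under 1 kb were 43.0% of all intervals and held 1.62% of the length.

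**Figure D1:**
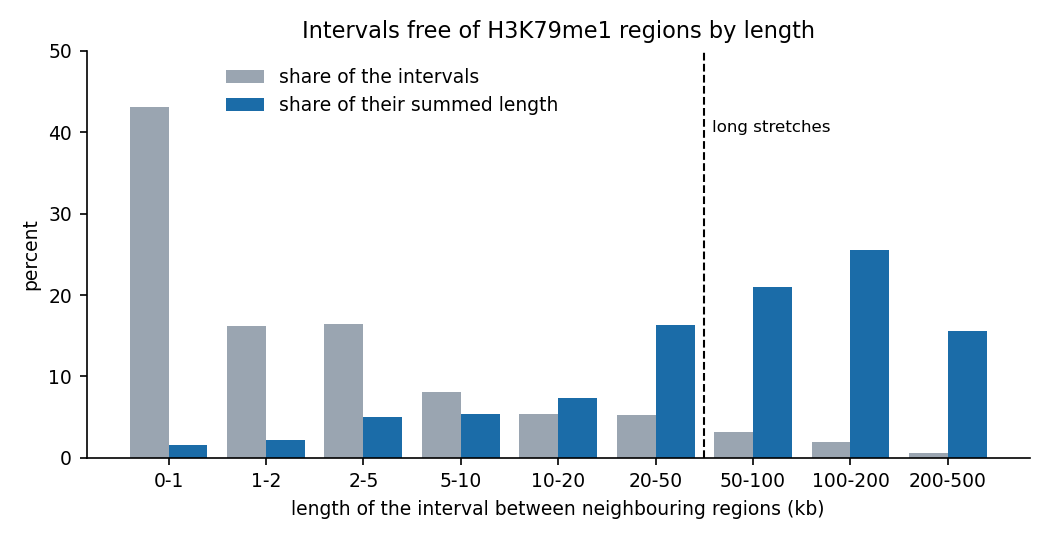
Intervals between neighbouring H3K79me1 regions on 2L, 3L, 3R and X, in classes of length in kb of unequal width, with the share of the 5967 intervals (grey) and the share of their summed length (blue) in percent. The 3 classes to the right of the dashed line are the long stretches, with 21.0%, 25.6% and 15.5% of the length.

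The median stretch was 90.6 kb long, with quartiles of 65.3 and 142 kb and a maximum of 454 kb. The median over all 5967 intervals was 1308 bp. Of the stretches, 151 reached 100 kb, 36 reached 200 kb and 9 reached 300 kb. Around the limit of 50 kb the lengths ran on without a break. The shortest stretches measured 50019 bp (3R from 14754438), 50166 bp (X from 12415206) and 50171 bp (3L from 20937803). The longest intervals left out measured 49884 bp (3R from 3993405), 49690 bp (3R from 21962894) and 49419 bp (3L from 3953875).

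All 4 arms had stretches in similar density. There were 84 on 2L, 78 on 3L, 96 on 3R and 81 on X, which is 3.65, 3.18, 3.44 and 3.61 per Mb. They took up 43.9% of 2L, 41.5% of X, 37.9% of 3R and 36.3% of 3L. Median lengths were 102 kb on 2L, 98.0 kb on X, 90.0 kb on 3R and 80.7 kb on 3L. 3L thus had the lowest median, yet it also held 4 of the 9 stretches of at least 300 kb.

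Each list alone, read with the same rule, gave a like number of stretches of similar length. Replicate 1 had 362 stretches with a median of 93.9 kb, replicate 2 had 359 with a median of 92.7 kb, and the combined list had 338 with a median of 90.5 kb. In the replicates they covered 44.0% ± 1.49 (SD, n = 2) of the arms. This share was larger than in the union because each list alone leaves out regions that another list holds. The lists had 5123, 5897 and 6191 enriched regions on these arms, and the number of reads behind them was unknown.

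A check that the choice of stretches does not fix is whether an interval free in 1 replicate was also free in the other, and nearly all of that sequence was. Stretches chosen in replicate 1 alone were covered by regions of replicate 2 over 0.874% of their length, against 30.1% for the 4 arms as a whole. Stretches chosen in replicate 2 alone were covered by replicate 1 over 0.446%, against 30.2%. The mean of both directions was 0.660% ± 0.303 (SD, n = 2). Both directions compare the same pair of libraries, so this SD is not a spread between replicates. By arm the values ran from 0.291% (3R) to 1.02% (3L). With 2 libraries no p-value was computed. Entirely free in the other replicate were 67 of the 362 stretches of replicate 1 (18.5%) and 108 of the 359 of replicate 2 (30.1%). Many of the rest were overlapped at their ends alone, since 258 (71.3%) and 299 (83.3%) had no region of the other replicate lying wholly inside. The most covered single stretch reached 22.3% in replicate 2 and 5.96% in replicate 1.

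The regions that did appear inside were short and low in score. The score is the authors' value for a region, positive for enrichment, on a scale that the files do not state. Replicate 2 placed 171 regions inside stretches of replicate 1, in the median 1565 bp wide with a score of 0.511, while all its regions on these arms had medians of 3174 bp and 0.688. Replicate 1 placed 68 regions inside stretches of replicate 2, with medians of 1501 bp and 0.518, where the whole list had 3587 bp and 0.750. Scores of these inner regions reached 1.53 in the first case and 0.790 in the second. A further 91.2 kb and 72.8 kb of overlap lay at the ends of stretches, where a region of the other replicate reached a little further.

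The combined list divided stretches that were free in both replicates. The union of the 2 replicate lists alone gave 353 stretches over 41587 kb, and 127 of them (36.0%) held at least 1 region of the combined list lying wholly inside. The median of these 212 regions was 1243 bp in width and 0.361 in score, compared with 3134 bp and 0.508 over the combined list on these arms. They covered 0.690% of the sequence concerned. As many as 6 fell in a single stretch. Neither replicate listed an enriched region narrower than 1301 bp on these arms, whereas widths in the combined list went down to 1001 bp. The median of 1243 bp thus lay below the narrowest replicate region, and regions of that width could not be matched by a replicate region of equal width. How much of the division of stretches comes from this difference between the lists was not tested.

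The longest stretches of each arm showed how firmly their bounds were set. The longest of all ran on 2L from 16916937 to 17370573. It was 454 kb long in the union, 453.7 kb in replicate 1, 453.9 kb in replicate 2 and 453.6 kb in the combined list, so its bounds hardly differed. All 3 lists had a region at both of its ends, and the left one was a broad region of 28665 bp with scores of 0.981, 0.982 and 0.982. The third longest of 2L, from 11526425 to 11795970, was as steady, at 269.9 kb and 270.0 kb in the replicates and 269.6 kb in the combined list. The second, from 15924760 to 16246654, measured 321.9 kb in the union and in the combined list and 328.7 kb and 328.4 kb in the replicates. Its left end was set by a region of 1730 bp found in the combined list alone.

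On 3L the longest stretch, from 23329756 to 23736508, was 406.8 kb in the union. Replicate 2 and the combined list had 412.4 kb and 406.8 kb there, while in replicate 1 it ran on to 694.0 kb. Its right end was a region of 1495 bp that replicate 1 lacked, with a score of 0.477 in replicate 2 and 0.269 in the combined list. The second longest, from 18219659 to 18611796, was 421.4 kb in replicate 1, 404.8 kb in replicate 2 and 392.2 kb in the combined list. The third, from 13510641 to 13900298, was 390.8 kb in each replicate and 389.7 kb in the combined list. Its flanking regions were high in score, at 1.18 and 1.15 on the left and 0.963 and 1.08 on the right in replicates 1 and 2.

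On 3R the longest stretch lay from 23811419 to 24145509. It measured 334.1 kb in the union and the combined list, 342.3 kb in replicate 1 and 344.1 kb in replicate 2. The second, from 12549855 to 12804209, was 254.6 kb in replicate 2 and 259.4 kb in the combined list but 323.2 kb in replicate 1. Its left end was a region of 1520 bp with a score of 0.550 in replicate 2 and, a little further out, a separate region of 1039 bp in the combined list, and replicate 1 had neither. The third, from 23121561 to 23373929, was 254.4 kb, 254.7 kb and 252.4 kb in replicate 1, replicate 2 and the combined list.

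On X the longest stretch, from 20535602 to 20896896, was 361.8 kb in replicate 1, 364.5 kb in replicate 2 and 361.3 kb in the combined list. Its right flank had a score of 0.350 in replicate 1, 0.0581 in replicate 2 and 0.0166 in the combined list, so the replicates differed there. The second, from 21500803 to 21846645, was 346.2 kb, 345.8 kb and 345.9 kb in the same order. The third, from 7236939 to 7522256, was 328.9 kb in replicate 1, 302.7 kb in replicate 2 and 285.4 kb in the combined list. The 12 stretches fell into those with like bounds in every list and those that a short region of 1 or 2 lists cut short.

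**Figure D2:**
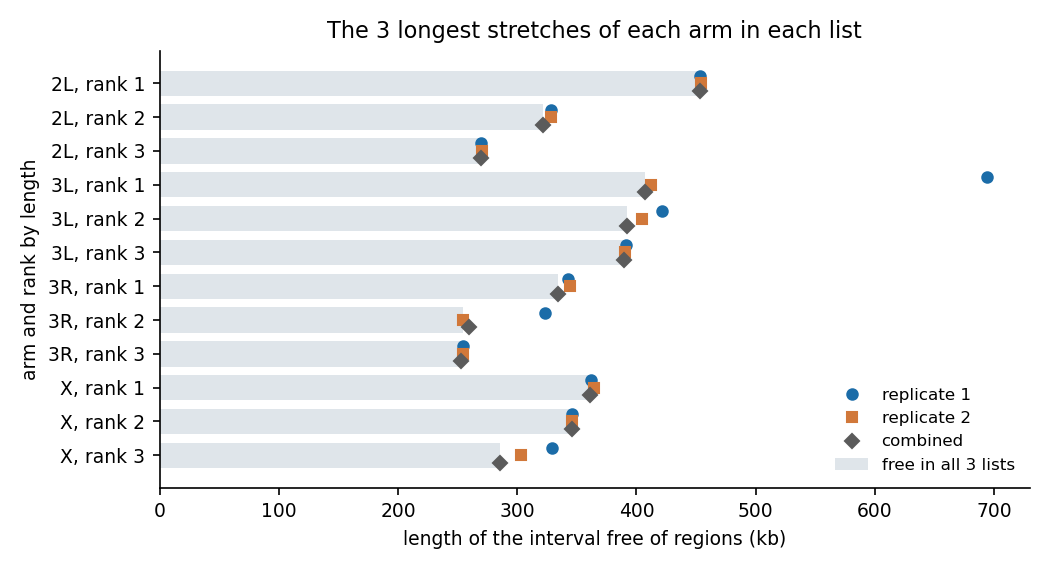
Length in kb of the free interval around each of the 3 longest stretches of 2L, 3L, 3R and X in replicate 1 (circles), replicate 2 (squares) and the combined list (diamonds), over grey bars for the interval free in all 3 lists. Most symbols lie at the end of their bar, and the longest stretch of 3L stands apart in replicate 1 at 694.0 kb.

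The same held over all 339 stretches. The free interval of replicate 1 around a stretch exceeded it by at most 1 kb in 163 cases (48.2%), that of replicate 2 in 188 (56.1%) and that of the combined list in 332 (97.9%). By at least 50 kb it was longer in 49, 24 and 4 cases. In 335 stretches both replicates had bounds on both sides, and their 2 lengths differed by 0.453 kb in the median, by at most 10 kb in 271 (80.9%) and by at least 50 kb in 30 (8.96%). In 160 stretches (47.2%) regions of both replicates stood at both ends, in 139 (41.0%) at 1 end, and in 40 (11.8%) at neither. Median lengths of these classes were 91.6, 94.9 and 79.9 kb.

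Long stretches lay along the whole length of each arm, with no 1 Mb window of the 96 examined free of them. Along the arm from telomere to centromere, the share in stretches averaged 29.1% in the first 10% of the arm and 62.8% in the last 10%. It did not rise steadily between them, since the fourth 10% had the lowest average (28.3%) and the ninth averaged 33.4%. Of the 10 equal sections of an arm, the last was the highest on 3L (77.5%) and X (73.6%). On 2L it stood at 54.6%, below the seventh (65.9%) and the eighth (65.4%). On 3R it stood at 45.4%, below the second (48.0%) and the sixth (50.8%). On 3L, 3R and X the section richest in stretches was also the one least covered by regions in both replicates, which the definition itself favours.

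In the last 1 Mb toward the centromere, stretches took up 98.4% of 3L, 82.8% of X, 79.2% of 2L and 29.3% of 3R. The medians of the other windows were 31.1%, 40.4%, 39.4% and 38.7%. Windows with at least 75% in stretches numbered 6, and 2 of them lay inside 2L, from 17011545 to 18011544 (82.8%) and from 15011545 to 16011544 (80.6%). The lowest window was on 3L, from 3543558 to 4543557, with 5.63% in a single stretch. Sequence near the centromere in which tags cannot be placed was not taken out, and its part in these values was not tested. Intervals between an arm's end and the nearest region, which are not counted as stretches, measured 5.10 to 53.7 kb at the telomere side and 5.51 to 50.5 kb at the centromere side.

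**Figure D3:**
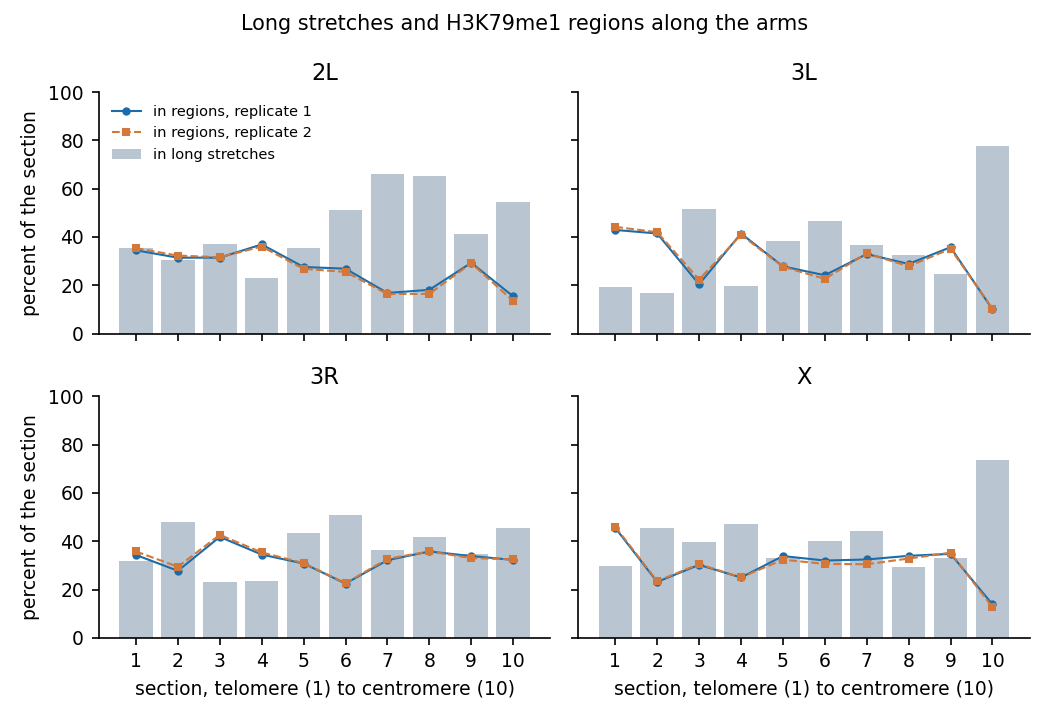
Percent of each 10% section of 2L, 3L, 3R and X in long stretches (bars) and in enriched regions of replicate 1 (circles) and replicate 2 (squares), with sections numbered from the telomere (1) to the centromere (10). Bars of the last section reach 77.5% on 3L and 73.6% on X, and the replicates' lines lie close together throughout.

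Neighbouring stretches were separated by distances of very uneven length, which held regions and shorter free intervals. Over 335 pairs of neighbours on the same arm, the distance from the end of 1 to the start of the next had a median of 118 kb, quartiles of 35.1 and 236 kb and a range of 1.15 to 927 kb. The median distance held 12 union regions, and the highest number was 91. Distances under 20 kb numbered 61 (18.2%) and those of at least 500 kb numbered 23. The widest lay on 3R from 25499420 to 26426378 and spanned 927 kb, and that of 2L, from 7680577 to 8595223, spanned 915 kb. On 3L it was 855 kb (8275669 to 9130564), and on X 763 kb (19036710 to 19800064). Even there the replicates covered 49.2% to 59.1% of the sequence. Over all sequence outside stretches, from the first to the last region of each arm, it was 50.2% ± 0.103 (SD, n = 2). Lengths of neighbouring stretches were hardly related, with a Spearman rho of 0.131 over 335 pairs that share their arms and lists.

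At 31 places a single region stood between 2 long stretches. There were 10 on 3L, 9 on 3R, 6 on 2L and 6 on X. These lone regions had a median width of 2903 bp, against 3203 bp for all regions next to a stretch, and 2 of the 31 reached 10 kb. All 3 lists held 19 of them (61.3%), 2 lists held 4, and a single list held 8, of which 6 were in the combined list alone. Where a replicate had them, their scores were ordinary. The median was 0.794 in replicate 1 (20 regions), where the list median was 0.750, and 0.687 in replicate 2 (24 regions), where it was 0.688.

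The widest of the lone regions was also the highest in score in both replicates. It lay on 3R from 2472286 to 2486089, was 13804 bp wide and had a highest score of 1.13 in replicate 1, 1.53 in replicate 2 and 1.12 in the combined list. The stretches on its sides were 187 and 149 kb long. Their lengths were 187.5 and 149.1 kb in replicate 1 and 187.1 and 149.0 kb in replicate 2, so the bounds hardly differed. That the region stood apart in each list that held it follows from the choice, since sequence free in the union is free in every list.

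Runs of stretches separated by lone regions were short, with 22 runs of 2, 3 runs of 3 and 1 run of 4. The run of 4 lay at the centromere side of 3L, from 23329756 to 24532067, and 1198 of its 1202 kb were free of regions. Its 3 lone regions measured 1495, 1492 and 1321 bp and were listed by 2 lists, by replicate 1 alone and by the combined list alone. Replicate 2 had no region on the centromere side of the first of them. On 2L the longest run held 3 stretches from 15271884 to 15728231 (456 kb), separated by regions that all 3 lists shared. On X it held 3 stretches from 14152582 to 14683360 (531 kb), and on 3R 2 stretches from 2285163 to 2635037 (350 kb).

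The regions next to a stretch were about as wide as regions elsewhere. The 647 union regions at an end had a median width of 3203 bp and quartiles of 1801 and 6584 bp. The 5324 other union regions had a median of 3230 bp and quartiles of 1764 and 7064 bp. At least 10 kb were reached by 14.4% of the first and 16.5% of the second. Of the flanking regions 68.0% were in all 3 lists and 18.1% in the combined list alone, against 64.0% and 19.3% of the others.

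Scores next to a stretch were slightly higher in the median, with wide overlap. In replicate 1 the 475 regions at an end had a median score of 0.798 and quartiles of 0.604 and 1.04, and the 4648 others had 0.741, 0.570 and 1.00. In replicate 2 the values were 0.750, 0.543 and 1.01 for 500 regions, against 0.682, 0.516 and 0.942 for 5397 others. As means of the replicate medians this was 0.774 ± 0.0345 against 0.712 ± 0.0417 (SD, n = 2). The difference had the same direction in each list but was small beside the spread between regions, and it was not tested, since regions of 1 library are not replicates.

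Width and score move together, so scores were also set side by side within classes of width. For regions of 2 to 5 kb the medians at an end were 0.762 and 0.737 in the replicates, against 0.694 and 0.673 elsewhere. Below 2 kb they were 0.457 and 0.426 against 0.492 and 0.446, lower than elsewhere. From 10 kb upward they were 1.12 in both replicates, against 1.11 and 1.12. By arm, the median at an end was above that of the other regions on 2L, 3R and X in both replicates. On 3L it was 0.671 against 0.710 in replicate 1 and 0.674 against 0.649 in replicate 2.

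**Figure D4:**
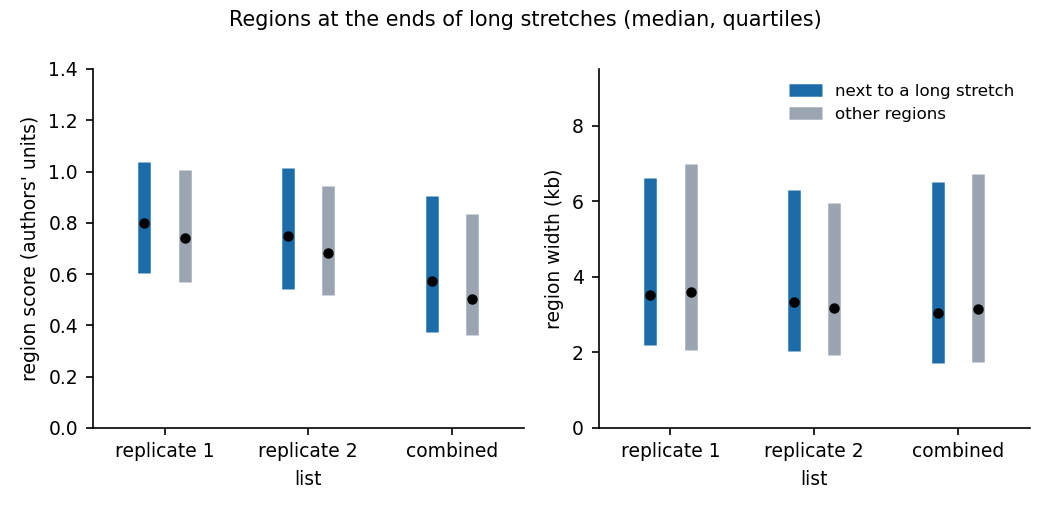
Median (point) and quartiles (bar) of the region score in the authors' units and of the region width in kb, for regions next to a long stretch (blue) and other regions (grey) of 2L, 3L, 3R and X in each list. Medians of the score are 0.798 against 0.741 in replicate 1 and 0.750 against 0.682 in replicate 2, and all bars overlap.

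The highest-scoring flanking region of each arm ranked between 5 and 25 among the regions of its arm in the replicates. Flanking regions were 475 of the 5123 regions of replicate 1 and 500 of the 5897 of replicate 2. The highest of so many can rank high without any tie to a stretch. On X the region from 9569590 to 9576564 in replicate 1 had a score of 1.82, rank 6 of the 1230 regions of the arm, beside a stretch of 95.8 kb. In replicate 2 it had 1.81 and rank 5 of 1387. On 2L the highest flank lay from 6324474 to 6331468 in replicate 1 with 1.46 (rank 21 of 1073), and it had 1.54 in replicate 2 (rank 8 of 1237). On 3L and 3R the replicates named different regions. On 3L these were 3835146 to 3839881 in replicate 1 (score 1.53, rank 16 of 1372) and 20988057 to 21000163 in replicate 2 (1.48, rank 19 of 1550). On 3R they were 20452243 to 20488084 in replicate 1 (1.44, rank 25 of 1448) and 2472286 to 2479483 in replicate 2 (1.53, rank 7 of 1723). The last of these lay within the lone region described above.

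Flanking scores showed no clear tie to the length of the stretch or to each other. Spearman's rho between the length and the mean score of the 2 flanks was -0.0787 in replicate 1 (178 stretches with a region at both ends) and 0.0819 in replicate 2 (202 stretches). Between the left and right scores of a stretch it was 0.0187 and -0.0299. These points share libraries and lone regions and are given as a description. The 36 stretches of at least 200 kb had median flank scores of 0.692 and 0.763 in the replicates, and the 121 of 50 to 75 kb had 0.791 and 0.742.

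Outward from an end, the share of all sequence in regions was high at first and fell toward the level of the arms. In the first 10 kb, which begin with a region by definition, regions covered 51.5% ± 0.867 (SD, n = 2). From 10 to 20 kb it was 40.6% ± 0.123, from 50 to 60 kb 34.2% ± 0.165 and from 90 to 100 kb 31.7% ± 0.0283, where the 4 arms stood at 30.2% ± 0.0618. The distance bins and the share of the arms both include long stretches, which hold no regions. Other long stretches took up 7.15% of the first 10 kb, 15.6% from 10 to 20 kb, 27.9% from 40 to 50 kb and 36.3% of the last. The fall past the first bin therefore does not show that regions thinned out in the sequence outside stretches. Beside the shorter intervals of 10 to 50 kb the fall was alike, from 49.9% ± 1.28 in the first 10 kb to 41.6% ± 0.327 from 10 to 20 kb and 32.8% ± 0.0260 from 90 to 100 kb. From 10 kb outward the values beside long stretches lay below those beside shorter intervals in both replicates. They lay furthest apart from 40 to 50 kb, with 33.8% ± 0.574 against 37.7% ± 0.238. Long stretches also took up less of the bins beside shorter intervals, with 12.1% from 10 to 20 kb and 34.5% from 90 to 100 kb. The lower values therefore do not show that regions were sparser in the sequence outside stretches. No test was made, because many windows overlap.

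**Figure D5:**
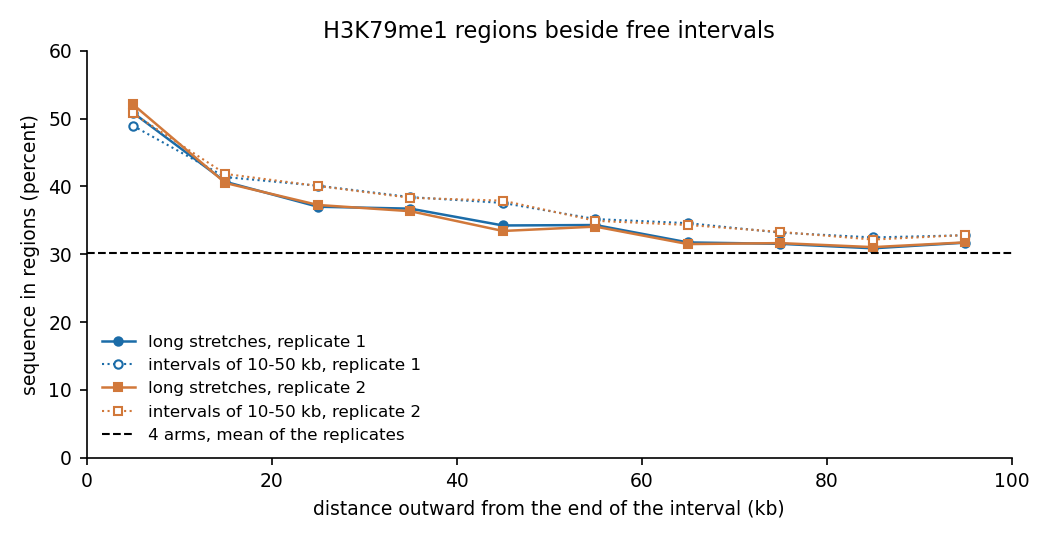
Percent of sequence in enriched regions by distance in kb outward from the ends of long stretches (filled symbols) and of intervals of 10 to 50 kb (open symbols) in replicate 1 and replicate 2, with the share of the 4 arms as a dashed line. The curves fall from 51.5% in the first 10 kb beside long stretches to 31.7% from 90 to 100 kb, and the bins include other long stretches.

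Immediately beyond the flanking region, the next interval was also somewhat longer than usual. It was read from each end, so an interval between 2 flanking regions was counted from both sides. Leaving out those that were long stretches themselves, the 613 readings had a median of 1496 bp. All 5628 intervals under 50 kb, which include these, had a median of 1191 bp. Among the 613 readings 17.3% reached 10 kb, against 11.3% of the 5628. The lists also held 8 rows of depletion on these arms, with scores below 0, and 0 of the 8 lay in a long stretch, where stretches took up 39.7% of the arms. All were from replicate 2 or the combined list, and some overlapped between the lists, so they are not 8 separate places. Only 2 of them lay in an interval between union regions at all. These overlapped each other, and the interval was 3.84 kb long.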

How the data were processed

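Each list gave 1-based starts and ends on FlyBase release 5 with arm lengths, per the file headers. The authors deposited a score for each region, positive for enrichment and negative for depletion. The submitters' processing notes name Bowtie 0.12.7. How regions were called, with which threshold, whether the inputs were used and how the replicates were combined is not given in the sources used here. Depth per library was unknown, so no counting interval is given, and the 2 replicates limit the precision.

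Enriched regions (score above 0) of the 3 lists on 2L, 3L, 3R and X were pooled, and touching or overlapping ones joined. Flanking scores came from each list's own region nearest the end. A list's region counted as next to a stretch only where it lay in the flanking union region. The centromere was taken at the high-numbered end of 2L, 3L and X and at the low-numbered end of 3R. Regions named were the 3 longest stretches per arm, the 3 intervals on each side of the length limit, the longest runs, the widest and highest lone regions and the highest flanks. The widest distance between stretches on each arm and the windows of 1 Mb were chosen after their values were seen. The members and lists were chosen with earlier results of these data known. Alternatives were other lists, score, width and length limits and each replicate's own list left out. Unions, intervals and covered lengths were tested on simulated data. Gene content was planned and is not analysed here, since no annotation of release 5 was used. The software was Python 3.11.15 with pandas 2.3.3, numpy 2.4.6, matplotlib 3.10.9 and scipy 1.17.1.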

Additional observations from a re-analysis of the deposited data

How the results depend on the processing

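Of 70 alternative values, 34 stayed within the SD of the replicates (for counts, within 1.5 times) and 36 moved out of it. For coverage by the other replicate, the SD was that of the 2 directions. For this coverage, the flank score and the covered share beside stretches, the main value was a mean of 2 values. Each of those 2 values alone lies within their SD by arithmetic. Such alternatives are counted among the 34 but could not move, so they do not show stability. The number of stretches moved only with the length limit, to 576 at 25 kb and 151 at 100 kb, where by construction more and fewer intervals enter, with 47335 and 25740 kb in all, medians of 59.3 and 149.7 kb and 48.4% and 26.3% of the arms. With each replicate's own list left out but the combined list kept, it was 338 to 339, with 38906 to 38959 kb, medians of 90.3 to 91.0 kb and 39.7% to 39.8%. The combined list was taken to draw on both replicates, although how it was made is not given. Alone it gave 338 stretches, 38971 kb, 90.5 kb and 39.8%. Leaving out a replicate's own list could thus hardly move the values and does not show that they hold without that replicate. Replicate 1 alone gave 44103 kb, a median of 93.9 kb and 45.1%, and replicate 2 alone 42046 kb, 92.7 kb and 43.0%. The replicate lists without the combined list gave 41587 kb, 92.4 kb and 42.5%, and regions of both replicates 44190 kb, 96.7 kb and 45.1%. Regions at or above the median score gave 46694 kb, 101.1 kb and 47.7%, and regions of at least 2 kb 44085 kb, 98.9 kb and 45.0%. Median flank width was 3203 bp for union regions in the main setting, 3021 bp with the 25 kb limit and 4554 bp for a minimum width of 2 kb. For each list's own flanking regions, which is another measure, it was 3516 bp in replicate 1, 3329 bp in replicate 2 and 3050 bp in the combined list. The flank score was 0.574 in the combined list, 0.854 for a minimum width of 2 kb, 0.798 in replicate 1 and 0.750 in replicate 2. Coverage by the other replicate fell to 0.115% when only its regions at or above the median score counted. From 10 to 20 kb beside a stretch the covered share was 41.1% and 38.7% with limits of 25 and 100 kb, and 41.3% in bins of 5 kb, from 10 to 15 kb. The cause of these shifts was not tested beyond what the construction shows. Reading each replicate by itself for that share, and leaving out each replicate's list for lone regions (29 to 31), was chosen after seeing the data. No paired analysis was possible because the inputs had no list here and no test was made between groups. Depth was unknown, so regions near the calling limit, which divide stretches, cannot be judged by it.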
